A study of Mus musculus with 8 samples.

Results

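Matrix metalloproteinases (MMPs) and the tissue inhibitors of metalloproteinases (TIMPs) were followed in murine bone-marrow-derived macrophages (BMDMs) by total RNA sequencing. The set holds 10 genes of 55359 listed, namely the 7 MMP genes Mmp2, Mmp8, Mmp9, Mmp12, Mmp13, Mmp14 and Mmp19 and the 3 TIMP genes Timp1, Timp2 and Timp3. They were taken by matching the Ensembl identifiers of the table to these symbols in the mouse GENCODE annotation. The matching used no measured value, but the genes were picked with earlier results of these data known. All 10 were found, and all 10 passed the filter of a mean of at least 10 normalized counts that left 16309 genes for testing. A normalized count is the number of reads on a gene divided by a size factor of its sample.

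The study asked how the uptake of apoptotic cells (efferocytosis) alters the response of macrophages (Mϕ) to inflammatory stimuli. Bone marrow of adult C57BL/6 wildtype mice of both sexes was the source of all cells, and 20 ng/mL M-CSF together with 20 ng/mL GM-CSF drove their differentiation. The Ctrl group was naïve, and the LPS group was naïve and received 100 ng/mL LPS with 100 U/mL IFNγ for 6 h. The Eff group was efferocytic after 16 h of co-culture with 5 apoptotic NIH-3T3 CA cells per Mϕ, a mouse fibroblast line that dies when 10 nM dimerizer activates its caspase-8. The dimerizer was also present during the co-culture, and the sources do not state whether the naïve groups received it, so that its effect on the Mϕ and that of efferocytosis cannot be told apart. The LPSEff group received both, the stimulation after the co-culture and washing. Each group had 2 samples, numbered 1 and 2, and CD45+ cells were isolated at harvest. The sources do not say whether the samples came from separate mice or how many mice were pooled, so that p-values measure the spread between these samples, which may be technical.

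The depth ranged from 3481288 to 12020918 reads per sample, with the lowest in Ctrl sample 1, and 3 reads corresponded to between 1.73 and 5.71 normalized counts. Nos2, an enzyme that LPS/IFNγ is known to induce, read 45.7 and 31.8 normalized counts in Ctrl and 23.7 and 26.8 in Eff, but 37734 and 24545 in LPS and 50428 and 39259 in LPSEff. All 8 samples thus went with their labels for the stimulus. The macrophage markers Lyz2, Itgam and Csf1r were high throughout, whereas Mertk and Aif1 read 166 and 78.0 normalized counts in Eff sample 1. The 10 macrophage markers summed to between 106516 and 162874 normalized counts per sample, of which Lyz2 alone held 54327 to 103975. Of 10 neutrophil markers, Retnlg did not exceed 1 read in any sample and Ly6g did not exceed 17 reads, while S100a8 reached 1257 reads, S100a9 1128 and Ngp 596. In bulk RNA, fewer cells of a kind and less RNA per cell cannot be told apart.

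MMPs are zinc proteases that cut the extracellular matrix and many secreted or surface proteins, and most are made as inactive proenzymes. TIMPs bind the active site of MMPs and block it. Mϕ are known as the main source of MMP-12, the macrophage metalloelastase, which degrades elastin. The study took up Mmp12 on these same samples partly because its mRNA level differed little between Ctrl and LPS, so a small difference of Mmp12 in that comparison is not independent evidence.

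The 10 genes differed widely in level. To set genes side by side, reads were divided by the exon length of the gene in kilobases and scaled by the depth of the sample, which gives reads per kilobase at a common depth (RPKM). On this scale Mmp12 had the highest median over the 8 samples with 815, followed by the collagenase genes Mmp8 with 345 and Mmp13 with 232. Timp2 (45.4), Mmp19 (32.7) and Mmp14 (26.1) formed a middle range. Timp1 (7.78), Mmp2 (5.90), Mmp9 (1.97) and Timp3 (0.779) were low, and Mmp9 and Timp3 rested on as few as 13 and 7 reads in Ctrl sample 1. Among all genes of the table, Mmp12 ranked between place 3 and place 23 by normalized count and between place 35 and place 108 per kilobase. The ranges of neighbours in this order overlapped over the samples, since Mmp13 lay between 27.8 and 731 and Mmp8 between 164 and 692 RPKM. Mmp12 (505 to 1375) and Mmp14 (7.59 to 55.2) did not overlap. The exon length matters here, because the annotation gives Mmp12 7237 exon bases over all its transcripts but 3607 in its canonical transcript. With canonical lengths, the median of Mmp12 was 1635 and that of Mmp14 57.7 RPKM.

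**Figure D1:**
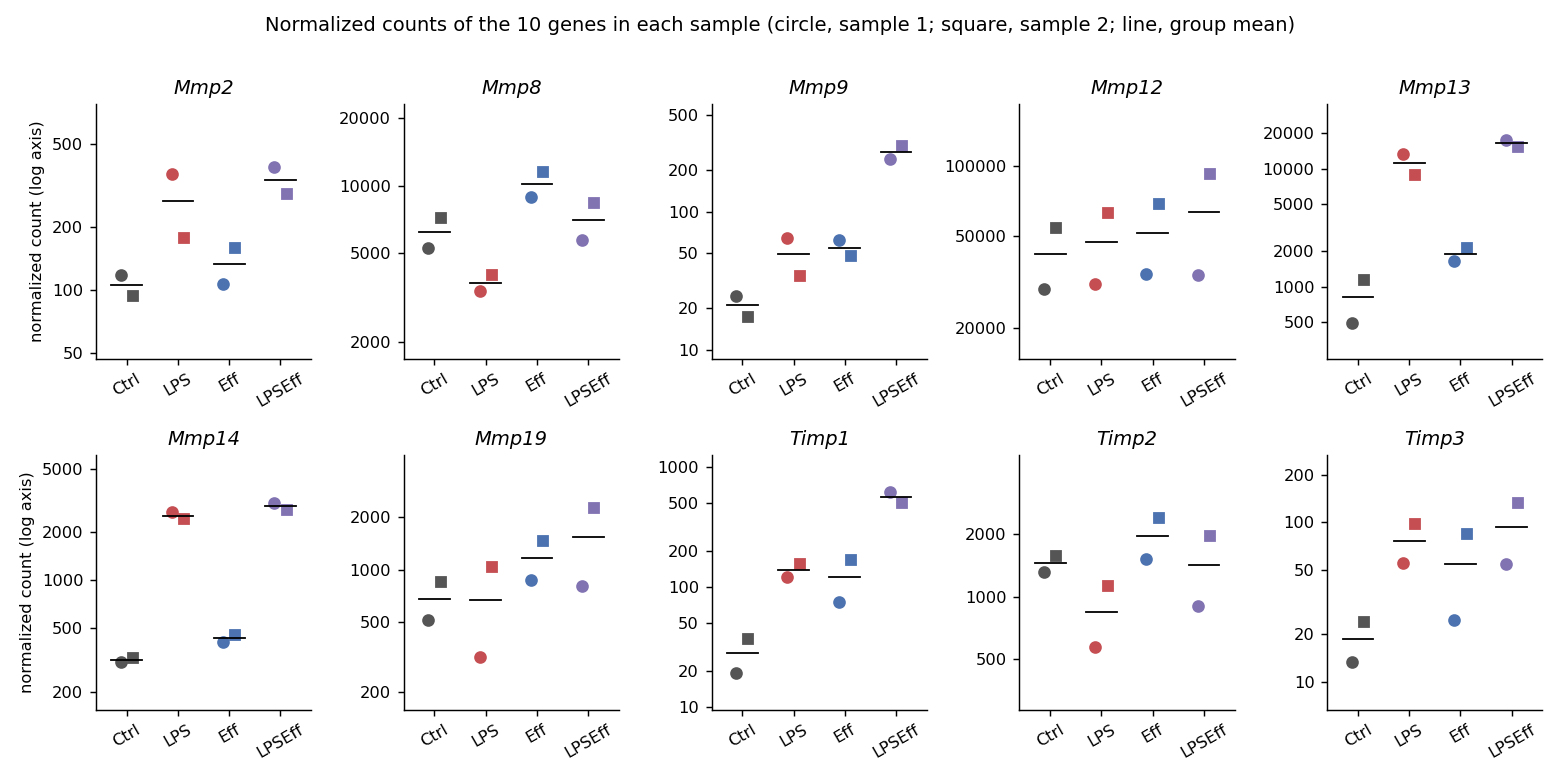
Normalized counts (vertical, log axis) of the 10 genes in the 4 groups, with circles for sample 1, squares for sample 2 and a line at the group mean. Mmp13 and Mmp14 stand higher in all 4 stimulated samples than in all 4 unstimulated ones, whereas the samples of Mmp12 lie between 29524 and 92168 with overlapping groups.

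Mmp12 did not differ between any of the groups beyond the spread between samples. Its normalized counts were 29524 and 53795 in Ctrl, 30954 and 62643 in LPS, 34223 and 68433 in Eff, with 33903 and 92168 in LPSEff. Every group thus held a low and a high sample, and each of the 4 groups overlapped with the others. The means were 41659 ± 17162 in Ctrl, 46799 ± 22408 in LPS, 51328 ± 24189.8 in Eff and 63036 ± 41199.5 in LPSEff (SD, n = 2). The log2 fold change was 0.14 in LPS vs Ctrl, with a standard error of 0.59 and a 95% confidence interval from −1.22 to 1.51 (adjusted p = 0.896). This interval spans 0.430-fold to 2.84-fold. It takes in the difference between the low and the high sample of each group, since the fit does not use the sample number. In LPSEff vs Eff it was 0.21 (interval −1.15 to 1.57, adjusted p = 0.854). In Eff vs Ctrl it was 0.28 (interval −1.08 to 1.64) and in LPSEff vs LPS 0.34 (interval −1.02 to 1.71). Counting error was not the limit for Mmp12, since its lowest sample held 15505 reads. The sign of the LPS vs Ctrl value turned when samples were rescaled to equal totals (−0.26, against a median over all genes of −0.40 on that scale), with quantile normalization (−0.46), without Ctrl sample 1 (−0.29) and without LPS sample 2 (−0.36).

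A mean of 100 normalized counts or more was reached by 8819 genes, and those of them whose log2 values followed Mmp12 most closely over the 8 samples were Edem3 (Pearson r = 0.986), Aga (0.978), Rbm27 (0.976), Mob4 (0.969) and Taf15 (0.969). Within the set, Mmp19 came closest to Mmp12 (r = 0.872, place 142), followed by Timp2 (r = 0.660, place 1010), while Mmp13 (r = 0.240), Mmp14 (r = 0.170) and Mmp2 (r = −0.0025) were far from it. These values describe 8 libraries in which a low and a high sample per group dominate Mmp12, and the genes share the depth and preparation of each library. Mmp9 and Timp3 were under this level and were not compared.

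**Figure D2:**
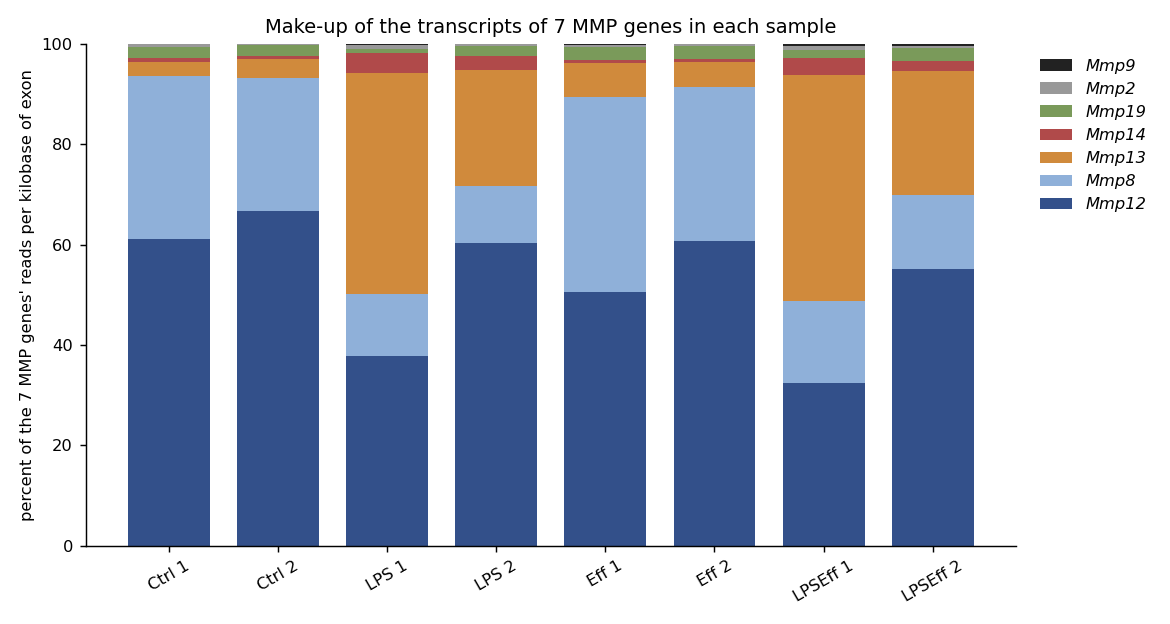
Share of each of the 7 MMP genes in their summed reads per kilobase of exon (vertical, percent) in each sample. Mmp12 takes between 32.4% and 66.7%, and Mmp13 between 2.77% and 6.60% without and between 23.0% and 45.1% with LPS/IFNγ.

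Mmp12 was the largest part of the MMP transcripts in 6 of the 8 samples, and Mmp13 in the other 2, which were both stimulated. Of the summed reads per kilobase of the 7 MMP genes, Mmp12 made up 61.2% and 66.7% in Ctrl and 50.5% and 60.8% in Eff. It made up 37.9% and 60.3% in LPS and 32.4% and 55.1% in LPSEff, so that LPS did not overlap with Ctrl while LPSEff overlapped with Eff. Mmp13 took 2.77% and 3.81% in Ctrl, 44.1% and 23.0% in LPS, 6.60% and 5.12% in Eff, with 45.1% and 24.6% in LPSEff. Mmp8 took 32.5% and 26.5% in Ctrl, 12.3% and 11.5% in LPS, 39.0% and 30.6% in Eff, with 16.3% and 14.9% in LPSEff. Per kilobase, Mmp13 came to 0.0452 and 0.0572 of the Mmp12 level in Ctrl, but to 1.16 and 0.382 of it in LPS and to 1.39 and 0.446 of it in LPSEff. With canonical lengths, Mmp12 was the largest part in all 8 samples, Mmp13 did not exceed 0.694 of it, and the Mmp12 share ranged from 47.5% in LPSEff sample 1 to 79.8% in Ctrl sample 2. These shares were not tested.

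LPS/IFNγ was compared in naïve Mϕ (LPS vs Ctrl) and in efferocytic Mϕ (LPSEff vs Eff). Mmp13, Mmp14, Mmp2 and Timp1 rose in both, and Mmp9 rose in efferocytic Mϕ. In naïve Mϕ 4 of the 10 genes were called at an adjusted p under 0.05, all higher, where 24.0% of all tested genes were called (12.4% higher and 11.6% lower). In efferocytic Mϕ 5 of 10 were called, all higher, against 19.7% of all tested genes (10.7% higher and 8.95% lower). The median log2 fold change of the 10 genes was 1.20 in naïve and 1.11 in efferocytic Mϕ, with −0.01 and 0.01 for all tested genes, of which 49.4% and 50.3% were above 0. No gene of the set was called lower. The groups did not overlap for 6 genes higher and 2 lower in LPS vs Ctrl (28.4% and 30.9% of all tested genes) and for 5 higher and 1 lower in LPSEff vs Eff (29.5% and 30.4%).

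**Figure D3:**
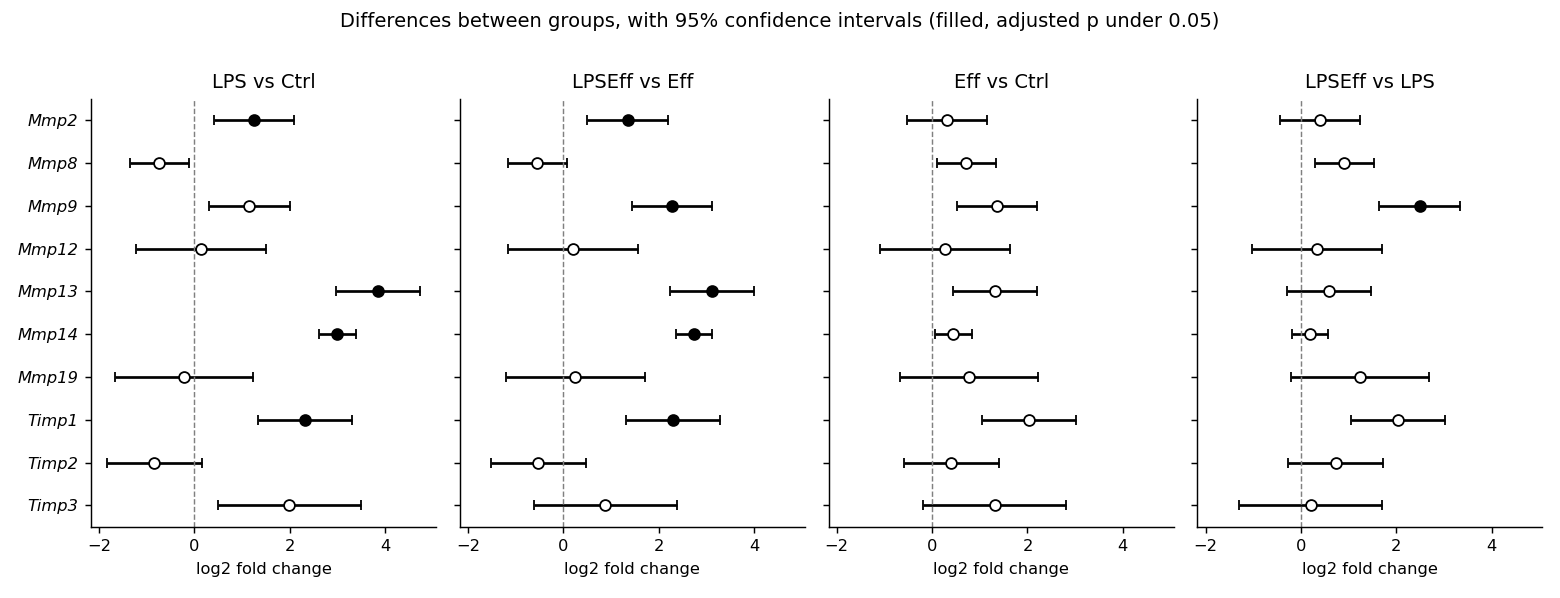
Log2 fold change (horizontal) of each gene in the 4 comparisons, with 95% confidence intervals from limma and filled points for an adjusted p under 0.05. Mmp13 and Mmp14 have the largest values under LPS/IFNγ, and the Mmp12 interval covers 0 in all 4 panels.

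Mmp13, a collagenase that cleaves fibrillar collagen, showed the largest response to LPS/IFNγ. It read 493 and 1136 normalized counts in Ctrl and 13318 and 8844 in LPS, and 1654 and 2129.9 in Eff and 17432 and 15199 in LPSEff. All stimulated samples lay above all unstimulated ones. It was 14.5-fold higher in LPS vs Ctrl (log2 3.86, SE 0.38, adjusted p = 0.000371) and 8.67-fold higher in LPSEff vs Eff (log2 3.12, adjusted p = 0.00107). The call was made under all 18 alternative settings in both comparisons. In contrast, Mmp8, known as the neutrophil collagenase, read 5259 and 7172 in Ctrl and 3379.6 and 4005 in LPS. Its groups did not overlap, but the log2 value of −0.74 (SE 0.27) did not pass the test (adjusted p = 0.0845). In efferocytic Mϕ it read 8874 and 11538 without and 5736 and 8371 with the stimulus (log2 −0.55, adjusted p = 0.205). Mmp8 was called lower in both comparisons with equal totals, with quantile normalization and with the sample number as a block in the fit. DESeq2 called it lower in LPS vs Ctrl. The 10 neutrophil markers summed to 728 to 1120 normalized counts in Ctrl and 1865 to 2218 in LPS, and to 1144 to 1624 in Eff and 1871 to 2649 in LPSEff, mostly through S100a8, S100a9 and Ngp. Of these markers 6 could be tested. In LPS vs Ctrl 3 were called higher and in LPSEff vs Eff 1 (12.4% and 10.7% of all tested genes). S100a8 was also called higher in Eff vs Ctrl (0.215% of all tested genes). S100a8 read 308 and 269 in Ctrl and 570 and 573 in LPS, and Ngp 145 and 79.8 in Ctrl and 331 and 468 in LPS, whereas Retnlg was at or near 0. Their part in Mmp8 and in Mmp9, which neutrophils are known to make as well, was not tested. The summed counts of 7 dendritic cell markers also rose with the stimulus, mostly through Ccr7. They went from 2359 to 3442 normalized counts in Ctrl to 8593 to 17557 in LPS. In efferocytic Mϕ they went from 1471 to 2067 in Eff to 6956 to 7135 in LPSEff. Of the 6 tested, 5 were positive and 1 negative in each comparison. Limma called 2 higher in LPS vs Ctrl and 1 in LPSEff vs Eff (12.4% and 10.7% of all tested genes). Itgae read 196 and 522 in Ctrl and 90.5 and 357 in LPS, and Cd209a did not exceed 14 reads. The part of these markers was not tested.

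Mmp14 encodes a membrane-bound MMP that activates the proenzyme of MMP-2 at the cell surface, together with TIMP-2. It had the tightest replicates of the set, with 310.4 and 326 normalized counts in Ctrl, 2685 and 2419.9 in LPS, 411 and 458 in Eff, with 3036 and 2783 in LPSEff. It was 7.99-fold higher in LPS vs Ctrl (log2 2.998, SE 0.17, adjusted p = 3.3e-05) and 6.69-fold higher in LPSEff vs Eff (log2 2.74, adjusted p = 3.56e-05). Both calls were made under all 18 alternative settings. Timp2 read 1316 and 1578 in Ctrl and 573 and 1123 in LPS (log2 −0.84, SE 0.43, adjusted p = 0.207), and 1519 and 2393 in Eff and 900.2 and 1958 in LPSEff (log2 −0.52, adjusted p = 0.463). Timp2 passed the main test in neither comparison, although it was lower in LPS than in Ctrl without overlap. In LPS vs Ctrl it was called lower with equal totals, with quantile normalization and with the sample number as a block. Per kilobase, Mmp14 amounted to 0.171 and 0.150 of the Timp2 level in Ctrl and to 0.196 and 0.139 in Eff, compared to 3.39 and 1.56 in LPS and 2.44 and 1.03 in LPSEff. Timp2 shares 332 exon bases on its own strand with Cep295nl, which had a mean of 4.48 normalized counts.

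The gelatinase genes Mmp2 and Mmp9 encode enzymes that degrade denatured collagen and basement membrane. Mmp2 read 118 and 93.7 normalized counts in Ctrl and 359.6 and 177 in LPS, and 107 and 159 in Eff and 387 and 287 in LPSEff. Without overlap in either comparison, it rose 2.38-fold in naïve Mϕ (log2 1.25, SE 0.37, adjusted p = 0.0402) and 2.55-fold in efferocytic Mϕ (log2 1.35, adjusted p = 0.0355). Both calls were near the threshold, and the adjusted p ran from 0.00563 to 0.194 and from 0.0044 to 0.187 over the alternative settings. Neither was made with equal totals or without Ctrl sample 1, Ctrl sample 2, LPSEff sample 1 or LPSEff sample 2, and the naïve call was also lost without LPS sample 1 or with only the groups compared in the fit, and the efferocytic call without either Eff sample. Mmp9 read 24.8 and 17.3 in Ctrl and 64.7 and 34.5 in LPS (log2 1.15, SE 0.37, adjusted p = 0.0544), which missed the threshold. DESeq2 and the fit with the sample number as a block called Mmp9 higher in LPS vs Ctrl. In efferocytic Mϕ it read 62.2 and 48.0 without and 243 and 299.5 with the stimulus, a 4.87-fold rise (log2 2.28, adjusted p = 0.00389) that was called under all 18 alternative settings.

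Mmp19, which encodes a secreted MMP that cleaves basement membrane components, differed between the samples of a group by more than the LPS/IFNγ comparisons did. It read 516 and 854 normalized counts in Ctrl, 317 and 1033 in LPS, 879.8 and 1457 in Eff, with 807 and 2258 in LPSEff. Neither LPS vs Ctrl (log2 −0.21, SE 0.63, interval −1.66 to 1.24, adjusted p = 0.852) nor LPSEff vs Eff (log2 0.25, adjusted p = 0.832) passed the test, and the sign of both turned under some settings.

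Among the inhibitors, Timp1, which blocks most secreted MMPs, rose with the stimulus. It read 19.0 and 37.0 normalized counts in Ctrl and 120.3 and 154 in LPS (4.97-fold, log2 2.31, SE 0.43, adjusted p = 0.00643). In efferocytic Mϕ it read 75.4 and 167 without and 622 and 504 with the stimulus (4.95-fold, log2 2.31, adjusted p = 0.00753). The efferocytic call was lost without LPSEff sample 1 (adjusted p = 0.0544). Timp3, whose protein binds to the matrix, read 13.3 and 23.7 in Ctrl and 55.6 and 97.5 in LPS (log2 1.99, SE 0.65, adjusted p = 0.0608), and 24.5 and 84.7 in Eff and 54.6 and 132 in LPSEff (log2 0.88, adjusted p = 0.41). It passed the test in neither comparison. Timp1 lies inside Syn1 and Timp3 inside Syn3, both on the opposite strand, and Timp3 shares 1734 exon bases with Syn3. The authors counted with the default mode of htseq-count, which is strand-aware.

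Whether the response to LPS/IFNγ differed between efferocytic and naïve Mϕ was tested as an interaction. With limma 0 of the 10 genes passed it and 0 had an unadjusted p under 0.05, and edgeR and DESeq2 also called 0. Of all tested genes 0.00% were called, 51.5% had a value above 0 and 311 had an unadjusted p under 0.05. Within the set the lowest unadjusted p was 0.0600, for Mmp9, whose log2 fold change was larger by 1.13 in efferocytic Mϕ (interval −0.06 to 2.32, adjusted p = 1.00). Thus, the call of Mmp9 in efferocytic but not in naïve Mϕ is not shown to be a difference between them. For Mmp13 the interaction was −0.74 (interval −1.98 to 0.50), for Mmp14 −0.26 (interval −0.80 to 0.29) and for Mmp12 0.06 (interval −1.86 to 1.99).

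Efferocytosis was compared without stimulus (Eff vs Ctrl) and under LPS/IFNγ (LPSEff vs LPS). All 10 genes had positive log2 fold changes in both, and Mmp9 under LPS/IFNγ was the only call by limma. In Eff vs Ctrl, limma called 0 of 10 genes, where it called 0.251% of all tested genes (0.215% higher and 0.0368% lower), although 5 of the 10 had an unadjusted p under 0.05. For the same comparison, edgeR called 0 and DESeq2 called 1 of the 10, Timp1. The median log2 fold change was 0.75, beside −0.01 over all tested genes, of which 48.5% were above 0. In LPSEff vs LPS, limma and edgeR called 1 of 10, Mmp9, and DESeq2 called 3, Mmp8, Mmp9 and Timp1, all higher. Limma's count stands against 0.773% of all tested genes (0.730% higher and 0.0429% lower), and the median was 0.66, beside −0.0025 over all tested genes, of which 49.7% were above 0. Groups without overlap were found for 7 genes in Eff vs Ctrl and, all higher as well, for 5 in LPSEff vs LPS (16.3% and 19.3% of all tested genes). LPS vs Ctrl and Eff vs Ctrl share the Ctrl samples, and LPSEff vs LPS and LPSEff vs Eff share the LPSEff samples.

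Mmp9 rose 5.61-fold in LPSEff vs LPS, from 64.7 and 34.5 to 243 and 299.5 normalized counts (log2 2.49, SE 0.37, adjusted p = 0.0319). In Eff vs Ctrl it was 2.56-fold higher without overlap (log2 1.36, adjusted p = 0.37), which did not pass. The call under LPS/IFNγ was lost with only the groups compared in the fit and without any of Ctrl sample 1, Ctrl sample 2, LPS sample 2, Eff sample 2, LPSEff sample 1 and LPSEff sample 2 (adjusted p up to 0.298), while the log2 value stayed between 2.04 and 2.93 when samples were left out. Timp1, the inhibitor that forms a complex with the proenzyme of MMP-9, was 4.11-fold higher in Eff vs Ctrl (log2 2.04, SE 0.43, adjusted p = 0.175) and 4.09-fold higher in LPSEff vs LPS (log2 2.03, adjusted p = 0.106), without overlap in either and without passing the test. Per kilobase, Mmp9 amounted to between 0.118 and 0.687 of the Timp1 level in the 8 samples, and all 4 groups overlapped.

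The other MMP genes gave smaller values. Mmp13 was 2.51-fold higher in Eff vs Ctrl (log2 1.32, SE 0.38, adjusted p = 0.404) and 1.50-fold in LPSEff vs LPS (log2 0.58, adjusted p = 0.696). Mmp8 was 1.65-fold and 1.88-fold higher without overlap (log2 0.72 and 0.91, adjusted p = 0.659 and 0.241). Mmp14 was 1.36-fold and 1.14-fold higher (log2 0.45 and 0.19, adjusted p = 0.67 and 0.798). None of these passed. For Mmp19 the log2 values were 0.77 and 1.24, for Mmp2 0.31 and 0.40, for Timp2 0.40 and 0.73 and for Timp3 1.31 and 0.20, with standard errors from 0.37 to 0.65.

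Fibroblast markers moved with efferocytosis as well. The 23 fibroblast markers summed to 1830 to 1927 normalized counts in Ctrl and 2835 to 6258 in Eff, and to 4039 to 4388 in LPS and 10129 to 12087 in LPSEff. Much of these sums was Fstl1, a secreted glycoprotein gene, with 1580 and 1232 in Ctrl, 709 and 1655 in Eff, then 2869 and 3259 in LPS against 3949 and 5892 in LPSEff, which passed the test in neither efferocytosis comparison. Of the 21 that could be tested, limma called 5 higher in Eff vs Ctrl, while edgeR called 2 and DESeq2 11. Under LPS/IFNγ (LPSEff vs LPS) limma called 8 higher, edgeR 9 and DESeq2 11, with respective limma median log2 fold changes of 2.52 and 3.28. Col1a1, a subunit of type I collagen, read 7.62 and 12.1 in Ctrl and 193 and 284 in Eff, and 16.8 and 38.6 in LPS and 606 and 537 in LPSEff. Lum remained at or below 4 reads in every sample. The markers also moved with LPS/IFNγ. In LPS vs Ctrl, where no fibroblasts were added, 19 of the 21 were positive (49.4% of all tested genes) and 3 were called higher (12.4%). In LPSEff vs Eff, 21 were positive (50.3%) and 2 were called higher (10.7%). Pdgfrb read 15.2 and 11.6 in Ctrl and 246 and 245 in LPS. The NIH-3T3 CA cells are of mouse origin as the BMDMs are, so that reads of the 2 cell types cannot be told apart. Fibroblasts are known to express Timp1, Timp2, Timp3, Mmp2 and Mmp14, and the part of fibroblast RNA in the values of these genes was not tested. Of the 10 macrophage markers, 0 were called in either efferocytosis comparison by the main limma fit, edgeR or DESeq2. With any of these tests 0 had an unadjusted p under 0.05, and the limma median log2 fold changes were −0.13 and 0.14. With LPS/IFNγ, limma called 3 of the macrophage markers higher in LPS vs Ctrl (12.4% of all tested genes). It called 4 of them higher in LPSEff vs Eff (10.7%).

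**Figure D4:**
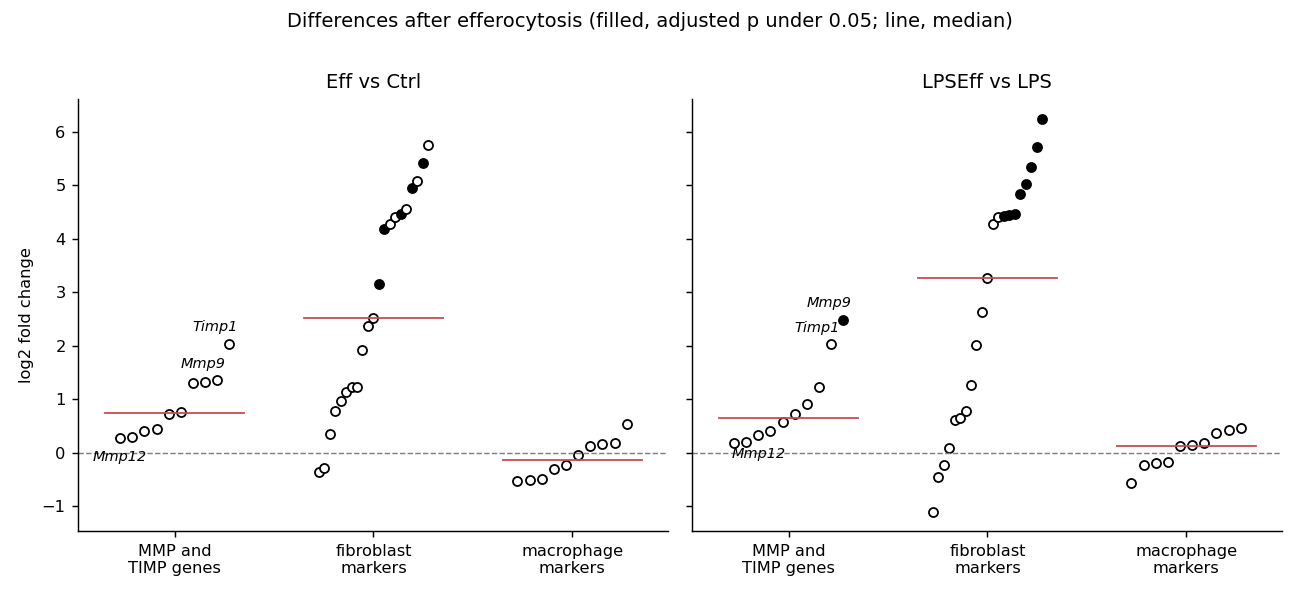
Log2 fold change (vertical) after efferocytosis of the 10 MMP and TIMP genes, 21 fibroblast markers and 10 macrophage markers, each point a gene, filled at an adjusted p under 0.05, with a line at the median. The median of the MMP and TIMP genes (0.75 and 0.66) lies between those of the macrophage markers (−0.13 and 0.14) and the fibroblast markers (2.52 and 3.28).

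Mmp12, Mmp13 and Mmp8 are neighbours. In GRCm39, the build the authors mapped to (mm39), 10 MMP genes lie within 427074 bases of chromosome 9 in the order Mmp13, Mmp12, Mmp1b, Mmp3, Mmp1a, Mmp10, Mmp8, Mmp27, Mmp20 and Mmp7. Mmp13 spans chr9:7272514-7283331 and Mmp12 chr9:7344381-7369499, both on the plus strand, with 61049 bases and 0 annotated genes between them. Mmp8 spans chr9:7558457-7568487 on the same strand. Only these 3 of the 10 were abundant. The medians of Mmp10 and Mmp27 were 1.42 and 1.38 RPKM, and those of Mmp3, Mmp7, Mmp1b, Mmp1a and Mmp20 lay between 0.036 and 0.188. Mmp1b, which overlaps the 3′ part of Mmp12 on the opposite strand with 157 shared exon bases, did not exceed 2 reads in any sample. Next to the 14.5-fold rise of Mmp13 in LPS vs Ctrl, Mmp12 stood at 1.10-fold and Mmp8 at 0.599-fold, neither of which passed the test.

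**Figure D5:**
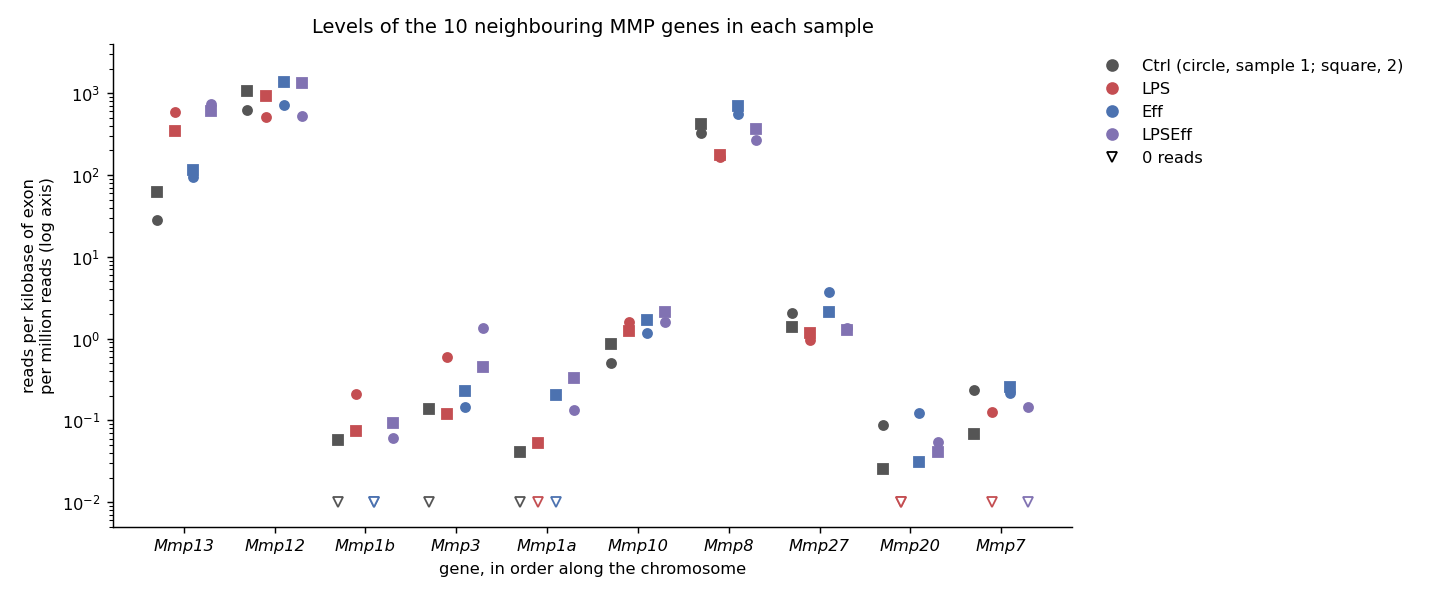
RPKM (vertical, log axis) of the 10 neighbouring MMP genes in their order on the chromosome, with a point for each sample and open triangles for samples with 0 reads. Mmp13, Mmp12 and Mmp8 lie between 27.8 and 1375 and the other 7 genes at or below 3.66.

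The bases just upstream of Mmp13 and Mmp12 are shown because these neighbours differed in their response while both hold a match to the AP-1 motif (TGACTCA, or TGAGTCA on the other strand). AP-1 is a dimer of Fos and Jun proteins known to bind collagenase promoters. The sequences are from RefSeq, 150 bases each up to the base before the annotated start, written 5′ to 3′ on the plus strand with the AP-1 match in capitals. They were located by exact match in GRCm39 at chr9:7272364-7272513 for Mmp13 and chr9:7347224-7347373 for Mmp12, upstream of its canonical start.
Mmp13: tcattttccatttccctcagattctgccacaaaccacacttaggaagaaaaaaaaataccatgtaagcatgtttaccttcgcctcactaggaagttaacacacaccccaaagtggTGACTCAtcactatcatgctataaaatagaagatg
Mmp12: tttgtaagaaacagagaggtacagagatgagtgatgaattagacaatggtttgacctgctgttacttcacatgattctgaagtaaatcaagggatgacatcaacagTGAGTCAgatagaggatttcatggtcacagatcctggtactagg

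The AP-1 match lay 35 to 29 bases before the start in Mmp13 and 44 to 38 bases before it in Mmp12. The motif was found in the 250 bases upstream of 4.46% of 32851 promoters in the table, on either strand. Of the 10 genes, 7 had 8 promoters in the table, whose build is GRCm38.p6, and Mmp2, Mmp9 and Mmp19 were not among them. The AP-1 motif was in none of the other 6 promoters, a second start of Mmp12 and those of Mmp8, Mmp14, Timp1, Timp2 and Timp3. Mmp13 also held a TATA box (TATAAA, in 12.4% of promoters) 16 to 11 bases before the start and an ISRE core (GAAA and again GAAA with 2 bases between, in 2.98%) 146 to 137 bases before it, while the GAS motif (TTCNNNGAA, in 7.02%) and the NF-κB motif (in 3.9%) were in none of the 8. These matches describe letters and not binding.

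Of 17 other MMP and TIMP genes, 7 passed the filter for testing. Mmp25, which encodes an MMP anchored to the leukocyte surface, was the only call by limma. It was called higher in both LPS/IFNγ comparisons, where 12.4% and 10.7% of all tested genes were called higher. It read 187 and 217 normalized counts in Ctrl and 933 and 1643 in LPS (log2 2.62, adjusted p = 0.000659), and 149 and 158 in Eff and 631 and 902 in LPSEff (log2 2.29, adjusted p = 0.00134). In both efferocytosis comparisons, 0 of these 7 were called by limma, edgeR or DESeq2, and 1 in each had an unadjusted p under 0.05 with limma. Limma called 0.251% and 0.773% of all tested genes there.

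Genes that activate, inhibit or hold MMPs at the surface rose with LPS/IFNγ in part. Of 13 such genes, 11 could be tested and 6 were called higher and 0 lower in LPS vs Ctrl (12.4% and 11.6% of all tested genes), and the same numbers held in LPSEff vs Eff (10.7% and 8.95%). Among them were Lcn2, whose protein binds MMP-9 (log2 5.62 and 4.90), and in naïve Mϕ Plat, the tissue plasminogen activator (log2 4.73, adjusted p = 0.0013). Plat read 1.90 normalized counts (1 read) in Ctrl sample 1 and 8.67 in Ctrl sample 2, against 118 and 167 in LPS. Serpinb2, which encodes an inhibitor of plasminogen activators, was among those called in efferocytic Mϕ (log2 3.56, adjusted p = 0.0129). In both efferocytosis comparisons, 0 of 11 were called by limma, edgeR or DESeq2, and 2 and 1 had an unadjusted p under 0.05 with limma. The limma shares over all tested genes were 0.251% and 0.773%. Reck, a membrane inhibitor of MMPs, did not exceed 16 reads in any sample.

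Of 14 ADAM and ADAMTS proteases, relatives of the MMPs that shed surface proteins or cut proteoglycans, all were tested, and 5 were called higher and 1 lower in each LPS/IFNγ comparison, where 24.0% of all tested genes were called in naïve and 19.7% in efferocytic Mϕ. Adamts9, Adamts4 and Adamts1, which cut proteoglycans, had the largest values in naïve Mϕ (log2 4.32, 2.94 and 2.54) and in efferocytic Mϕ (log2 2.07, 3.45 and 2.25). Adamts9 read 1.90 normalized counts (1 read) in Ctrl sample 1 and 7.52 in Ctrl sample 2, against 94.4 and 103 in LPS. Adamts1 was the only one called with efferocytosis, from 13.3 and 13.9 normalized counts in Ctrl to 51.7 and 98.1 in Eff (log2 2.31, adjusted p = 0.0426) and from 89.2 and 79.2 in LPS to 374 and 313 in LPSEff (log2 2.01, adjusted p = 0.0414). With edgeR it was not called in Eff vs Ctrl. DESeq2 called 2 of the 14 proteases in LPSEff vs LPS, and the fit with the sample number as a block called 3.

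Of the genes of the elastic fibre, the substrate of MMP-12, elastin itself (Eln) remained at or below 18.4 normalized counts in every sample. Of 14 such genes, 9 were tested. Fbn1, a microfibril component, rose in LPS vs Ctrl (log2 3.57, adjusted p = 0.000341) and in Eff vs Ctrl (log2 3.54, adjusted p = 0.0125), and Lox, an enzyme that crosslinks elastin and collagen, rose in LPS vs Ctrl (log2 3.15) and in LPSEff vs Eff (log2 2.36). Fbln2 rose in LPSEff vs LPS from 14.2 and 43.7 to 862 and 525 normalized counts (log2 4.69, adjusted p = 0.0321). Efemp1 was at 0 in both Ctrl samples and read 48.2 and 227 in Eff, and it had at most 1 read in the LPS samples beside 131 and 217 in LPSEff. Both efferocytosis calls of Efemp1 and those of Fbn1 and Fbln2 had the direction of the fibroblast markers. Fbn1 was also called in LPS vs Ctrl, where no fibroblasts were added. The part of fibroblast RNA in these genes was not tested.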

How the data were processed

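Total RNA of 8 BMDM samples, 2 in each of 4 groups, was depleted of rRNA and sequenced. The counts of the authors (htseq-count, default mode) rest on STAR alignments to mm39, made after adapters (cutadapt) and residual rRNA (bowtie2) had been taken out. Tool versions and the annotation release were not given in the sources used here. The authors deposited, as the signal of a gene, its normalized count, made by dividing the read count by the DESeq2 size factor of the sample. Within a sample, 1 read was set equal to the lowest value above 0, and 100% of values were then whole reads (tolerance 0.01 reads). Depths and floors of 3 reads cover counting error only. Of 55359 genes, 54749 (98.9%) were named by GENCODE annotation of GRCm39.

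Since the values are normalized, the main test was limma (version 3.58.1, under R 4.3.3; trended prior variance) of log2(normalized count + 1), in place of the DESeq2 test the study used. It was fitted to all 8 samples and the 16309 genes whose mean was 10 or more, with 4 group means (4 residual degrees of freedom). P-values were adjusted by Benjamini-Hochberg over all tested genes, and a gene was called at an adjusted p under 0.05. A fold change refers to log2(value + 1) and understates changes of low genes. With 2 against 2 samples, the smallest p of an exact permutation test is 0.333. Alternatives were pseudocounts of 0.5 and 5, a mean filter of above 0 or of 50, a fit of only the groups compared, a replicate block, quantile normalization, equal totals, edgeR (version 4.0.16, TMM) and DESeq2 (version 1.42.0), both run on recovered reads, and leaving out each sample.

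The main limma fit, the replicate block, edgeR and DESeq2 were tested for LPS vs Ctrl on simulated counts with known changes. These counts held no effect of the sample number. The other comparisons and settings were not checked in this way. The members and the gene lists were chosen with earlier results of these data known. All 10 members were named in every comparison, and of each other list at most 3 called genes with the largest change, with Nos2 as a check of the labels. A gene that this rule selects is not reported here. Genes shown for their low level or as markers were named after their values were seen. Promoters were searched in the RefSeq table on both strands. The labels give 7 days of differentiation and the methods 6.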

Additional observations from a re-analysis of the deposited data

How the results depend on the processing

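Of the 890 values of single genes recomputed under the alternatives, 791 kept their direction and their side of the threshold, 31 passed it newly, 22 no longer passed it and 46 changed sign, 23 of these in the interaction. The cause was not tested unless the alternative itself shows it. With 2 samples per group, leaving out a sample leaves 1 in its group, which is then assumed to vary like the other groups.

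Same-numbered samples deviated together (r between 0.404 and 0.595 for 6 group pairs), but neither the labels nor the methods say that a number marks a shared preparation, so that this is only a hint from the data. With the replicate block, 8 members were called in LPS vs Ctrl, 7 in LPSEff vs Eff, 4 in Eff vs Ctrl and, under LPS/IFNγ, 5 in LPSEff vs LPS. All genes called were 6717, 6033, 436 and 1137 of all genes in place of 3910, 3213, 41 and 126. Mmp12 was called in none of the 4 comparisons with the block, and between same-numbered samples it was 1.05-fold and 1.16-fold higher in LPS than in Ctrl. The block called 13 fibroblast markers in Eff vs Ctrl and 12 under LPS/IFNγ. It called 0 of the 10 macrophage markers in these comparisons, where 2 and 3 had an unadjusted p under 0.05.

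DESeq2 called 7 members in LPS vs Ctrl, where it called 3954 of all genes. It called 1 member in Eff vs Ctrl and, under LPS/IFNγ, 3 in LPSEff vs LPS. It called 204 and 368 of all genes in the latter comparisons, while edgeR called 14 of all genes in Eff vs Ctrl. Leaving out single samples also moved counts of all genes by more than 1.5 times, and those fits are not listed. Among the other settings, the further counts that moved this far in Eff vs Ctrl were 79 with every gene above 0, 20 with a mean of at least 50 and 9 with only the groups compared. In LPSEff vs LPS the count was 66 with only the groups compared. In LPSEff vs Eff it was 5578 with equal totals (5735 called in LPS vs Ctrl). Equal totals shift the median of all genes by −0.40 in LPS vs Ctrl and −0.44 in LPSEff vs Eff. Leaving out 1 sample changed the number of members called in LPS vs Ctrl, LPSEff vs Eff and LPSEff vs LPS. The number of all genes called changed as well in these comparisons.

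The sign changed in LPS vs Ctrl for Mmp12 with quantile normalization (−0.46) and equal totals (−0.26) and without single samples (−0.36 to 0.65), and for Mmp19 with DESeq2 (0.0007) and without single samples (−1.06 to 0.64). In LPSEff vs Eff it changed for Mmp12 with quantile normalization (−0.36) and equal totals (−0.24) and without single samples (−0.51 to 0.93), for Mmp19 with quantile normalization (−0.086) and equal totals (−0.20) and without single samples (−0.49 to 0.99), and for Timp2 without single samples (−1.08 to 0.0383). Without single samples, Mmp12 ranged from −0.22 to 0.78 in Eff vs Ctrl and from −0.38 to 1.07 in LPSEff vs LPS, where Mmp2 ranged from −0.11 to 0.91 and Timp3 from −0.42 to 0.83. In the interaction, Mmp2 turned with edgeR (−0.0127) and DESeq2 (−0.021) and Timp1 with a pseudocount of 5 (0.11) and edgeR (0.0441). Without single samples the interaction ranged from −0.42 to 0.60 for Mmp2, −0.0797 to 0.47 for Mmp8, −0.66 to 0.79 for Mmp12, −0.38 to 1.32 for Mmp19, −0.58 to 0.56 for Timp1 and −0.24 to 0.88 for Timp2. None of these reached an adjusted p under 0.05 in the main setting.

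The median share of Mmp12 among the 7 MMP genes was 57.7%, 77.5% with reads not divided by length and 71.8% with canonical transcript lengths, an alternative chosen after seeing the data. Reads were fewest for Timp3, Timp1 and Mmp9, which rested on 7, 10 and 13 reads in Ctrl sample 1. The part of depth in their spread was not tested.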

Other observations

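In each of the 4 groups, the sample numbered 2 held more Mmp12 than the sample numbered 1, by 0.87 in Ctrl, 1.02 in LPS, 1.00 in Eff and 1.44 in LPSEff on the log2 scale of normalized counts. Mmp8, Mmp19, Timp2 and Timp3 were higher in sample 2 in all 4 groups as well, as were 29.1% of all tested genes. A difference of at least 0.5 in all 4 groups was found for 3.28% of tested genes, with Mmp12, Mmp19 and Timp3 among them, and the median difference over all tested genes was 0.080 to 0.128. Mmp14 differed by −0.15 to 0.16 between the samples of a group. The macrophage marker Aif1, with 107 and 492 normalized counts in Ctrl and 153 and 1054 in LPS, and the dendritic cell markers Dpp4, with 126 and 346 in Ctrl and 221 and 1188 in LPS, and Zbtb46, with 118 and 323 in Ctrl and 429 and 745 in LPS, were also higher in sample 2. Aif1, Dpp4 and Zbtb46 were chosen after their values were seen, and the macrophage markers did not share 1 direction. In Ctrl, Lyz2 (83920.5 and 78661), Cd68 (1154 and 807) and Mertk (341 and 257) were lower in sample 2, and the other macrophage markers were higher. In LPS, Csf1r (5722 and 4464) and Cd14 (23118 and 12722) were lower in sample 2, and the other macrophage markers were higher. The cause of the difference between samples was not tested.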
